A study of Mus musculus with 12 samples.

Results

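The genes that encode the translation initiation factors (eIF1 to eIF6), the elongation factors (eEF1 and eEF2) and the proteins that modify or bind them were examined in splenic CD4+ T cells of mice with ligature-induced periodontitis (LIP) and of controls (CTL). The 61 genes were those whose symbols in the authors' tables begin with Eif1 to Eif6, Eef1 or Eef2, without the eIF2 kinases, the Eif2s3 genes and the named pseudogenes, out of 55414 gene records, of which 15174 had a symbol. All 61 were read in the counts, and 60 had enough counts to be tested in every comparison. The exception was Eef1akmt3, a lysine methyltransferase of eEF1A, which was counted between 0 and 0.528 CPM, near the limit that a count of 3 sets (0.233 to 0.480 CPM, counting error only).

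RNA of CD4+ T cells, isolated from the spleen by negative selection, was sequenced as 12 libraries from BALB/c mice aged 18 weeks, 3 of each group on each day. On day 0 the cells had not been cultured (CTL 88, 89 and 94, and LIP 92, 93 and 94). On day 2 they had been cultured with IL-2 (10 ng/ml), anti-TCRβ antibody (1 µg/ml) and anti-CD28 antibody (1 µg/ml) according to the labels (CTL 92, 93 and 97, and LIP 90, 96 and 97). LIP is made by tying a silk thread around a molar, and both groups were cultured alike on day 2. The study's methods give other concentrations of IL-2 and anti-TCRβ antibody. In place of anti-CD28, the label of 1 library of each group (CTL 93, LIP 96) reads anti-CD29, and that of another (CTL 97, LIP 97) reads anti-CD30. Values below follow this order of libraries. A library is named by its group, number and day. The number 94 recurs in CTL and LIP of day 0, 97 in CTL and LIP of day 2, and 92 and 93 in LIP of day 0 and CTL of day 2, and whether a recurring number marks anything shared, or whether a library held 1 mouse or several, was not given in the sources used here, so the p-values measure the spread between these libraries.

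The libraries held 6249094 to 7845715 counts on day 0 and 8691745 to 12866751 on day 2. Markers of T cells (Cd3d, Cd3e, Cd3g, Cd4 and Trac) summed to 1457 to 1992 CPM, whereas B cell markers summed to at most 128 CPM, CD8 T cell and NK cell markers to at most 21.8, myeloid markers to at most 11.9 and erythroid markers to at most 3.01. Pancreatic acinar markers, from a tissue next to the spleen, summed to at most 20.7 CPM, in LIP 93 of day 0. The series text describes the mice as male, but Xist, the RNA of the inactive X chromosome, was counted at 2041 to 4232 CPM in all 12 libraries and the Y-linked gene Ddx3y at 0 counts in all 12. Of 2 other Y-linked genes, Uty was counted at 0 to 4 counts, with 3 libraries at 0, and Kdm5d at 62 to 188 counts, with none at 0. A library stood apart from its group on each day. On the first principal component of day 0 (39% of the variance), CTL 94 lay at 13.4, among the LIP libraries (7.78 to 18.4) and away from CTL 88 and 89 (-18.6 and -37). On that of day 2 (48.1%), LIP 90 lay at -8.11, nearer to the CTL libraries (-34.9 to -18.1) than to LIP 96 and 97 (44.9 and 39.4). Results that rest on these libraries are given with and without them.

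Initiation begins when eIF2, a complex that carries the initiator methionyl-tRNA with GTP, joins the small ribosomal subunit together with eIF1, eIF1A, eIF3 and eIF5. The eIF4F complex (the cap-binding protein eIF4E, the scaffold eIF4G and the helicase eIF4A) brings the mRNA, and the eIF4E-binding proteins hold eIF4E back until the kinase mTORC1 phosphorylates them. The eIF2B complex recharges eIF2 with GTP, and stress kinases that phosphorylate eIF2 block this step, which lowers protein synthesis in general while the transcription factor ATF4 is made. During elongation eEF1A delivers aminoacyl-tRNAs, the eEF1B subunits recharge it and eEF2 moves the ribosome along. Resting T cells make little protein, and they enlarge and increase their protein synthesis when their receptor is stimulated.

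Levels were compared between genes as CPM per kilobase of the longest annotated transcript. Where the cells use a shorter transcript, the level of a gene is placed too low. Eef1a1, which encodes eEF1A, held the highest level on both days, with a mean of 2264 CPM per kilobase over the 6 libraries of day 0 and 3568 over the 6 of day 2. Eef2 followed with 724.0 and 2097 CPM per kilobase. After these 2 elongation factors came Eif1 (195.6), the helicase gene Eif4a2 (158.8) and the eEF1B subunit gene Eef1g (118.9) on day 0, and Eef1g (443.4), Eif1 (411.3) and the eEF1B subunit gene Eef1b2 (234.7) on day 2. The levels spanned several orders of magnitude, down to the eIF4E-binding protein gene Eif4ebp1 (0.423) and Eef1akmt3 (0.0727) on day 0. Eef1a1 and Eef2 therefore weigh heavily in any sum. All 61 genes summed to 17598 to 18544 CPM in CTL and 14735 to 16300 in LIP on day 0, and to 25946 to 29570 in CTL and 30678, 41018 and 37351 in LIP on day 2. Without Eef1a1 and Eef2, the other 59 summed to 7352 to 7670, 6725 to 7068, 12125 to 13892 and 14080 to 15197 CPM. With or without these 2 genes, the sums of LIP lay below those of CTL on day 0 and above them on day 2. This order depended on the scaling. With library size alone, the sums of the 59 genes overlapped on both days (7801 to 8165 CPM in CTL and 7630 to 7908 in LIP on day 0, 11678 to 12874 and 12521 to 13205 on day 2), and those of all 61 overlapped on day 2, where LIP 90 lay at 26658 CPM among the CTL libraries (24989 to 27404).

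**Figure D1:**
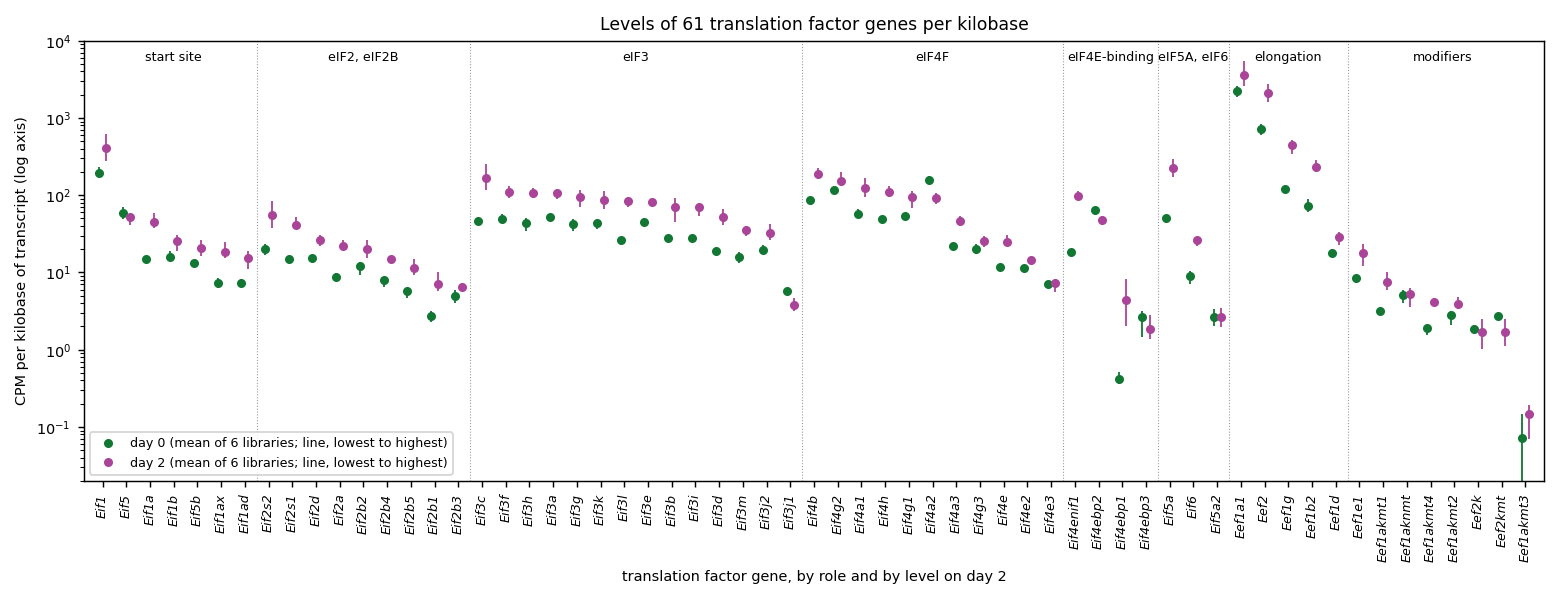
Mean level of each of the 61 genes in CPM per kilobase of its longest annotated transcript (log axis), over the 6 libraries of day 0 and the 6 of day 2, with a line from the lowest to the highest library and genes grouped by role. Eef1a1 (2264 and 3568) and Eef2 (724.0 and 2097) lie above the rest, and most genes lie higher on day 2, with Eif4a2 (158.8 and 91.4) and Eif4ebp2 among those that lie lower. The line of Eef1akmt3 on day 0 is cut at the lower edge because 1 library was at 0.

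The first comparison asked how stimulation changed these genes, within CTL and within LIP. Most of them rose. In CTL, 47 of the 60 genes tested were higher and 5 lower on day 2 than on day 0 (86.7%), and in LIP 50 were higher and 4 lower (90%). Over all 15475 genes tested, 69% passed in CTL (35.3% higher and 33.7% lower) and 71.8% in LIP (36.6% higher and 35.2% lower). The median log2 fold change of the 60 genes was 0.90 in CTL, against -0.02 over all genes, and 1.14 in LIP, against 0.00. In all, 47 genes rose in both groups and 4 fell in both (adjusted p under 0.05, edgeR's quasi-likelihood test on all 12 libraries with Benjamini-Hochberg adjustment over all genes). The libraries of day 2 are other samples than those of day 0, so culture and sample cannot be told apart. In bulk RNA, fewer cells of a type and less RNA per cell cannot be told apart either. The summed markers of activation and proliferation (Il2ra, Cd69, Myc, Mki67, Top2a and Tfrc) went from 509 to 698 CPM on day 0 to 5647 to 7704 CPM on day 2, and those of B cells from 97.5 to 128 CPM to 20.9 to 60.1 CPM. Summed myeloid markers went from 4.57 to 11.9 CPM on day 0 to 0.681 to 2.06 CPM on day 2. The sums of CD8 T cell and NK cell markers went from 11.8 to 21.8 CPM to 5.34 to 15.4 CPM. The part of these changes in cell makeup in the results was not tested.

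Among the factors that select the start site, 6 of 7 rose and 1 fell in CTL, and in LIP 6 of 7 rose. The paralogs Eif1a and Eif1ax, which encode eIF1A, rose in both groups. Eif1a was counted at 52.3, 49.1 and 51.3 CPM (CTL) and 46.0, 48.4 and 45.7 CPM (LIP) on day 0, and at 138, 122 and 139 CPM (CTL) and 194, 144 and 140 CPM (LIP) on day 2. Its log2 fold change was 1.38 (SE 0.12) in CTL and 1.77 (SE 0.12) in LIP, and that of Eif1ax was 1.24 (SE 0.16) and 1.46 (SE 0.16). Eif1b, a paralog of Eif1, was counted at 19.9, 17.3 and 16.4 CPM (CTL) and 15, 15.2 and 16.0 CPM (LIP) on day 0 and at 23.1, 19.9 and 30.8 CPM (CTL) and 32.3, 27.7 and 25.1 CPM (LIP) on day 2. It rose by 0.46 (SE 0.16, adjusted p = 0.0194) in CTL and 0.88 (SE 0.16) in LIP. In CTL the call was lost with upper-quartile scaling (0.18, adjusted p = 0.314), with library size alone (0.27, adjusted p = 0.128) and without CTL 89 of day 0 or CTL 97 of day 2 (0.44 and 0.28, adjusted p = 0.0577 and 0.113). Eif5, which encodes the factor that makes eIF2 hydrolyse its GTP, went the other way in CTL. It was counted at 443, 410 and 350 CPM on day 0 and at 319, 262 and 342 CPM on day 2, a log2 fold change of -0.38 (SE 0.12, adjusted p = 0.0107). In LIP its log2 fold change was 0.07 (SE 0.12, adjusted p = 0.587).

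All 9 genes of eIF2, eIF2B and the other carriers of the initiator tRNA rose in LIP, and 8 of 9 in CTL. Eif2s1 and Eif2s2 encode the α and β subunits of eIF2. Eif2s1 rose by 1.31 (SE 0.12) in CTL and 1.61 (SE 0.12) in LIP on the log2 scale. Eif2b1 to Eif2b5 encode the 5 subunits of eIF2B, and their log2 fold changes ran from 0.28 (Eif2b3, adjusted p = 0.0547) to 1.37 (Eif2b1, SE 0.21) in CTL. Eif2d, which encodes a factor that can place the initiator tRNA without eIF2, was counted at 67.8, 68.5 and 76.8 CPM (CTL) and 79.2, 77.8 and 80.0 CPM (LIP) on day 0, and at 134, 152 and 140 CPM (CTL) and 132, 109 and 118 CPM (LIP) on day 2. It rose by 1.00 (SE 0.10) in CTL and 0.60 (SE 0.10) in LIP.

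Of the 14 genes of eIF3, the scaffold of the initiation complex, 13 rose and 1 fell in both groups. In CTL the largest rise among them was that of Eif3l, from 67.9 to 70.1 CPM on day 0 to 179, 207 and 218 CPM on day 2 (log2 fold change 1.55, SE 0.10). Eif3b followed with 1.45 (SE 0.20). In LIP it was that of Eif3c, counted at 173, 165 and 171 CPM on day 0 and at 627, 924 and 1008 CPM on day 2 (log2 fold change 2.33, SE 0.14), against 198, 198 and 200 CPM and 463, 511 and 512 CPM in CTL (1.32, SE 0.14). The subunit that fell was Eif3j1, from 29.8 to 35.2 CPM on day 0 to 19.7, 21.9 and 26.0 CPM (CTL) and 22.7, 19.2 and 17.4 CPM (LIP). It fell by 0.49 in CTL (SE 0.13) and by 0.72 in LIP (SE 0.14) on the log2 scale. Its paralog Eif3j2 rose by 0.72 (SE 0.18) in CTL and 0.71 (SE 0.18) in LIP. Their transcripts were 99.4% identical over 2379 aligned bases, so the division of reads between these 2 genes is uncertain.

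The genes of eIF4F and its helpers included 8 that rose and 1 that fell in CTL, and 9 and 1 in LIP. The pair of helicase genes moved apart. Eif4a1 was counted at 208, 161 and 162 CPM (CTL) and 197, 193 and 173 CPM (LIP) on day 0, and at 382, 300 and 425 CPM (CTL) and 523, 340 and 368 CPM (LIP) on day 2. Eif4a2 was counted at 589, 656 and 572 CPM (CTL) and 602, 587 and 560 CPM (LIP) on day 0, and at 399, 290 and 378 CPM (CTL) and 375, 320 and 289 CPM (LIP) on day 2. Eif4a1 thus rose by 1.06 (SE 0.17) in CTL and 1.13 (SE 0.17) in LIP, while Eif4a2 fell by 0.77 (SE 0.13) and 0.83 (SE 0.13) on the log2 scale. Per kilobase, Eif4a2 lay above Eif4a1 on day 0 (158.8 against 57.6 CPM per kilobase) and below it on day 2 (91.4 against 123.0). A pseudogene record, Eif4a-ps4, was 99.9% identical to Eif4a1 over 1218 bases and held 97.4% as many counts (106 to 525 CPM), so the level of Eif4a1 is uncertain. With the counts of the pseudogenes added to their genes, a choice made after the values were seen, none of the genes named by p or by log2 fold change altered its call. Eif4a1 was not among these genes, so its own call was not followed under this choice.

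The paralogs of eIF4G and eIF4E differed in size of change rather than in direction. Eif4g1 rose by 0.90 (SE 0.16) in CTL and 0.69 (SE 0.16) in LIP. Eif4g3 rose by 0.45 (SE 0.11) and 0.26 (SE 0.11), although in CTL the call was lost with upper-quartile scaling (0.16, adjusted p = 0.177) and in LIP the value turned to -0.06 with upper-quartile scaling and -0.10 with library size alone. In LIP the call was also lost without LIP 92, 93 or 94 of day 0 or LIP 90 or 97 of day 2 (adjusted p between 0.0658 and 0.109). Eif4g2 was counted at 1012, 994.3 and 977.8 CPM (CTL) and 897.4, 832.2 and 843.9 CPM (LIP) on day 0 and at 1064, 1078 and 1293 CPM (CTL) and 1578, 1128 and 1126 CPM (LIP) on day 2. Its protein lacks the eIF4E-binding site, and the gene had a log2 fold change of 0.20 in CTL (SE 0.13, adjusted p = 0.178) and rose by 0.57 (SE 0.13) in LIP. Eif4e, the cap-binding protein itself, rose by 0.98 (SE 0.11) and 1.20 (SE 0.11). Eif4e2, whose protein represses translation of some mRNAs, went from 76.1 to 87.1 CPM on day 0 to 94.4 to 108 CPM on day 2. It rose by 0.23 (SE 0.08) and 0.42 (SE 0.08), although in CTL this turned to -0.05 with upper-quartile scaling and the call was lost without CTL 89 of day 0 or CTL 93 of day 2 (adjusted p = 0.0583 and 0.0875). In LIP its call was lost with upper-quartile scaling (0.098, adjusted p = 0.305) and with library size alone (0.055, adjusted p = 0.55). Eif4e3 did not pass the test in either group (0.02, SE 0.15, and 0.07, SE 0.16). A record that shares 245 bases with it at 100% identity, Gm20696, held more counts than Eif4e3, so this value is uncertain.

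The genes of the eIF4E-binding proteins split, and Eif4ebp1 showed the largest rise of the 60 in LIP. Eif4ebp1 was counted at 3.16, 3.13 and 2.63 CPM (CTL) and 2.76, 3.24 and 3.74 CPM (LIP) on day 0, and at 15, 19.1 and 14.9 CPM (CTL) and 26.2, 60.01 and 61.2 CPM (LIP) on day 2. It rose by 2.45 (SE 0.32) in CTL and 3.91 (SE 0.31) in LIP on the log2 scale. Eif4ebp2, with the most counts of the Eif4ebp genes here, fell from 406 to 421 CPM in CTL and 357 to 373 CPM in LIP to 275, 309 and 328 CPM and 276, 285 and 251 CPM, by 0.45 (SE 0.09) and 0.44 (SE 0.09). Per kilobase, Eif4ebp2 remained above Eif4ebp1 on day 2 (47.7 against 4.45). These levels take lengths of 6.022 and 7.353 kilobases, and their order may change if the cells use a shorter transcript of Eif4ebp1. Eif4ebp3, at 1.25 to 2.89 CPM, did not pass the test, and a record that shares 504 bases with it at 97.4% identity, Maskbp3, held more counts. Eif4enif1, which encodes a protein that carries eIF4E into the nucleus, rose from 74.2 to 88.2 CPM on day 0 to 382 to 504 CPM on day 2, with log2 fold changes of 2.44 (SE 0.12) in CTL and 2.42 (SE 0.12) in LIP. In CTL the rises of Eif4ebp1 and Eif4enif1 were the largest and differed by less than their errors.

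Eif5a encodes the factor that helps ribosomes past difficult peptide bonds and that carries the modified lysine hypusine. It rose by 2.19 (SE 0.18) in CTL and 2.09 (SE 0.18) in LIP, from 142 to 179 CPM on day 0 to 654, 772 and 799 CPM (CTL) and 953, 561 and 615 CPM (LIP). Its paralog Eif5a2 lay between 10.8 and 18.8 CPM throughout and did not pass the test (0.18, SE 0.21, and -0.15, SE 0.21). Eif6, whose protein keeps the ribosomal subunits apart, was counted at 29.4 to 42.9 CPM on day 0 and at 91.7, 103 and 110 CPM (CTL) and 115, 116 and 117 CPM (LIP) on day 2. It rose by 1.43 (SE 0.13) and 1.69 (SE 0.13).

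All 5 elongation factors rose in LIP, and 4 of 5 in CTL. Eef1g rose by 1.63 (SE 0.11) in CTL and 2.15 (SE 0.11) in LIP, Eef1b2 by 1.5 (SE 0.14) and 1.90 (SE 0.14), and Eef2 by 1.21 (SE 0.16) and 1.85 (SE 0.16). Eef1a1, the exception, was counted at 8187, 7764 and 8268 CPM on day 0 and 8394, 9370 and 9280 CPM on day 2 in CTL, and at 6932, 5993 and 6565 CPM and 9729, 17562 and 14547 CPM in LIP. Its log2 fold change was 0.16 (SE 0.17, adjusted p = 0.408) in CTL and 1.1 (SE 0.17, adjusted p = 5.42e-05) in LIP. A pseudogene record, Gm4366, was 99.6% identical to Eef1g over 1342 bases and held 47.0% as many counts, so the level of Eef1g is uncertain.

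Among the modifiers, Eef1e1, which encodes a subunit of the aminoacyl-tRNA synthetase complex, and the methyltransferase genes Eef1akmt1, Eef1akmt2 and Eef1akmt4 rose in both groups. The call of Eef1akmt2 was lost with upper-quartile scaling (0.12, adjusted p = 0.509, in CTL and 0.25, adjusted p = 0.158, in LIP) and with library size alone (0.22 and 0.21, adjusted p = 0.219 and 0.223), and in CTL without CTL 89 of day 0 or CTL 92 or 93 of day 2 (adjusted p = 0.142, 0.0633 and 0.0628). Eef2kmt, which encodes a methyltransferase of eEF2, fell. It was counted at 18.2, 18.5 and 21.4 CPM (CTL) and 19.6, 18.7 and 19.9 CPM (LIP) on day 0, and at 8.03, 9.55 and 10.3 CPM (CTL) and 11.6, 17.9 and 15.4 CPM (LIP) on day 2, which made log2 fold changes of -1.06 (SE 0.17) and -0.38 (SE 0.16, adjusted p = 0.0491). In LIP this call was lost in DESeq2, with RLE scaling, without the filter on low counts and when any 1 library other than LIP 96 was left out (-0.21, adjusted p = 0.206, without LIP 90). Eef2k, which encodes the kinase that inactivates eEF2, did not pass the test in either group (-0.30, SE 0.20, and 0.05, SE 0.19).

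**Figure D2:**
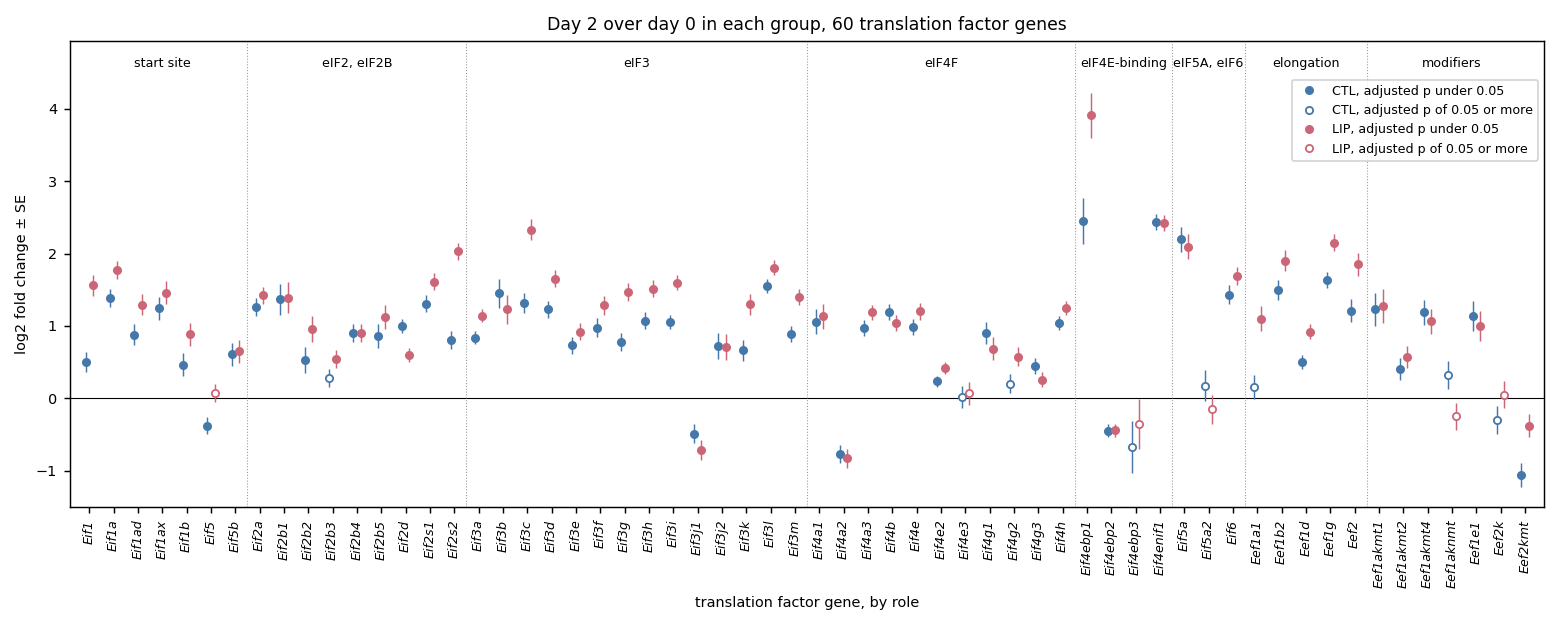
Log2 fold change (± SE) of day 2 over day 0 for the 60 genes tested, in CTL and in LIP, grouped by role, from edgeR's quasi-likelihood fit of all 12 libraries. Filled points have an adjusted p under 0.05 (52 genes in CTL and 54 in LIP), and the genes below the line in both groups with filled points are Eif3j1, Eif4a2, Eif4ebp2 and Eef2kmt.

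The sizes of these changes depended on the scaling. With upper-quartile scaling the median of all genes became -0.31 in CTL and -0.32 in LIP, and that of the 60 genes became 0.61 and 0.81. With library size alone the medians were -0.21 and -0.36 over all genes and 0.71 and 0.77 for the 60. Under these scalings, too, the median of the 60 genes lay above that of all genes in both groups.

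The regions upstream of the genes were read to see what the genes that rose together share. In windows from 250 bases before to 50 bases after the annotated start (GRCm39, canonical transcripts of GENCODE M39), the letters CACGTG occurred in 11 of the 61 promoters (18.0%), against 10.1% of the 11988 tested protein-coding genes. This palindrome, read alike on both strands, is the E-box to which MYC and related factors bind. The 11 genes were Eef1akmt4, Eef2, Eef2k, Eif1ad, Eif3a, Eif3f, Eif3k, Eif4g1, Eif4h, Eif5a and Eif5a2. Of these 11, 9 rose in both groups, and of the other 49 genes tested, 38 did. Eef2k and Eif5a2 were the 2 of the 11 that passed in neither group. The stretches of these 2 and of 4 of the 9, chosen after the values were seen from genes of different roles, are given from 100 bases before to 20 bases after it, 5′ to 3′ on the strand of the gene. Capitals mark CACGTG and, in Eif3k, also an unbroken run of pyrimidines that begins with C at the start.
Eef2: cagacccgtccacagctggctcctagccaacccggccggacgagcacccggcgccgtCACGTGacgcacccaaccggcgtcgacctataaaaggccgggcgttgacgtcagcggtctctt
Eef2k: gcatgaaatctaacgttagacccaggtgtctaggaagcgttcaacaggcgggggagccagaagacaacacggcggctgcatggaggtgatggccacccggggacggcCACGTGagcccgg
Eif3k: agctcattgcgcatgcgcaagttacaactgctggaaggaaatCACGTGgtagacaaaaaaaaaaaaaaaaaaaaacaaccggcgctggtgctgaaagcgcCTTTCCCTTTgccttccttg
Eif4g1: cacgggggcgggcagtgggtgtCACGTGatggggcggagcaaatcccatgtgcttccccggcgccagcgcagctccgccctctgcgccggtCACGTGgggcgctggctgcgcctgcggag
Eif5a: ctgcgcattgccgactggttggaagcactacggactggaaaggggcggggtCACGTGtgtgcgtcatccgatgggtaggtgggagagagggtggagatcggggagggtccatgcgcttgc
Eif5a2: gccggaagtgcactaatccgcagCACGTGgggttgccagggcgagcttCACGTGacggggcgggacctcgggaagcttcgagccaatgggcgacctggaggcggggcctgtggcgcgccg
They lie at chr10:81012365-81012484 on the plus strand (Eef2), chr7:120441916-120442035 on the plus strand (Eef2k), chr7:28681280-28681399 on the minus strand (Eif3k), chr16:20491401-20491520 on the plus strand (Eif4g1), chr11:69812218-69812337 on the minus strand (Eif5a) and chr3:28835261-28835380 on the plus strand (Eif5a2). The first base of CACGTG lies 43 bases before the start in Eef2, 58 in Eif3k, 49 in Eif5a, 78 and 9 in Eif4g1, and 77 and 52 in Eif5a2, and it lies 7 bases after the start in Eef2k.

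A start of C followed by further pyrimidines, at least 5 in all, is the mark of mRNAs with a terminal oligopyrimidine tract, whose translation mTORC1 controls. It stood at the annotated start of 3 of the 61 genes (Eef1aknmt, Eif2s1 and Eif3k, 4.92%) and of 4.0% of the tested protein-coding genes. Starts were taken as annotated, and a tract that begins a few bases away is not counted. Runs of 5, 5 and 12 pyrimidines that begin with T stood at the annotated starts of Eef1a1, Eef1g and Eif3f. They were not counted either, and the share of all genes with such a run was not taken. The letters TGATGNAA, which occur in elements bound by ATF4 and its partners, were searched on both strands and were found in the window of 1 gene, Eif4ebp3 (1.64%, against 2.46% of the tested protein-coding genes). These matches are descriptions of the letters in these windows.

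The second comparison asked whether LIP altered these genes before culture. On day 0 most of the 60 genes lay slightly lower in LIP, and 0 passed after adjustment. The log2 fold change of LIP over CTL was below 0 for 44 of the 60, while 51.9% of all genes lay above 0, and ran from -0.31 to 0.28, with a median of -0.06 against 0.01 over all 14064 genes tested. With library size alone these medians were 0.0038 and 0.0772. In the test with unadjusted p-values, 14 of the 60 had a p under 0.05, all lower in LIP (23.3%), where 7.2% of all genes were lower and 6.67% higher. The smallest adjusted p among them was 0.163, and 0.427% of all genes had one under 0.05. The count of 14 ran from 3 to 18 under the alternatives, and it was 3 with all 12 libraries in the fit. In 15 genes every LIP library lay below every CTL library and in 2 every one lay above, against 9.85% and 9.26% of all genes.

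Of the 14 genes, 6 encoded eIF3 subunits, 3 acted in start site selection, 2 were elongation factors, and the remaining 3 were Eif2s2, Eif4g2 and Eif4ebp2. Among all eIF3 subunits, 13 of 14 lay below 0. Eif3c, which encodes a core subunit, was counted at 198, 198 and 200 CPM in CTL and 173, 165 and 171 CPM in LIP, a log2 fold change of -0.22 (SE 0.06, adjusted p = 0.163). Eif3h was counted at 196, 208 and 201 CPM against 172, 144 and 179 CPM (-0.28, SE 0.08, adjusted p = 0.173), and Eif3k at 83.0, 86.0 and 85.5 CPM against 72.1, 65.0 and 75.1 CPM (-0.26, SE 0.08, adjusted p = 0.177). In each of these 3 genes the LIP libraries lay below all CTL libraries.

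The 2 most abundant factors also lay lower. The values of Eef1a1 were 8187, 7764 and 8268 CPM in CTL and 6932, 5993 and 6565 CPM in LIP (-0.31, SE 0.09, adjusted p = 0.167). Eef2 was counted at 2687, 2483 and 2797 CPM against 2300, 2016 and 2226 CPM (-0.28, SE 0.09, adjusted p = 0.187). Both genes had an adjusted p under 0.05 in DESeq2 (0.00305 and 0.0169), where 1.19% of all genes did in this direction, and without the filter on low counts (0.0132 and 0.0354), where 1.49% did.

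Eif1, which encodes the factor that guards the start codon, was counted at 339, 324 and 282 CPM in CTL and 278, 253 and 243 CPM in LIP (-0.28, SE 0.08, adjusted p = 0.174). Eif5 was counted at 443, 410 and 350 CPM against 350, 336 and 307 CPM (-0.27, SE 0.09, adjusted p = 0.222), and CTL 94 and LIP 92 were alike, so that its groups overlapped. In both genes CTL 94 was the CTL library nearest to LIP. Without CTL 94, Eif1 and Eif5 passed (both -0.36, adjusted p = 0.0184 and 0.0190), where 2.8% of all 14343 genes were lower. Eif2s2 was counted at 94.8, 90.5 and 83.3 CPM against 74.3, 81.5 and 68.1 CPM (-0.26, SE 0.09, adjusted p = 0.218). Eif4g2 (-0.21, SE 0.07) and Eif4ebp2 (-0.17, SE 0.07) had adjusted p-values of 0.224 and 0.290, and their groups did not overlap.

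Other genes differed on the same day, among them those that respond to handling and temperature. The summed level of 11 of them was 1702 to 1870 CPM in CTL and 901 to 943 CPM in LIP, and of the 10 tested, 6 were lower in LIP (Fos, Fosb, Jun, Hsph1, Hsp90aa1 and Dnajb1) and 1 higher (Cirbp) at an adjusted p under 0.05. Fos, an immediate early gene, was counted at 163, 130 and 50.9 CPM in CTL and 34.2, 26.0 and 31.8 CPM in LIP. Of the 6 markers of activation and proliferation, Cd69, an early activation antigen, was lower in LIP, at 387, 297 and 215 CPM in CTL and 176, 152 and 152 CPM in LIP (-0.90, SE 0.16, adjusted p = 0.0375). Without CTL 94, Cd69 (-1.09) and Myc (-0.35) were lower and Mki67 (0.96) and Top2a (1.14) higher. The part of these differences in the values of the translation factors was not tested.

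The third comparison asked the same question after stimulation. On day 2 the direction was the opposite, and again 0 of the 60 genes passed after adjustment, as did 0 of the 14041 genes tested (0% of all genes, smallest adjusted p 0.0568). The log2 fold change was above 0 for 43 of the 60, as it was for 49.2% of all genes, and ran from -0.43 to 1.58, with a median of 0.14 against -0.01 over all genes. With library size alone the median of the 60 was 0.059, and with the library number as a block in a fit of all 12 libraries it was 0.014. In the block, LIP against CTL on day 2 rests on LIP 97 and CTL 97 alone, which share a number. At an unadjusted p under 0.05, 17 were higher in LIP (28.3%) and 1 was lower (1.67%), where 8.33% of all genes were higher and 8.2% lower. In 18 genes every LIP library lay above every CTL library and in 2 every one lay below, against 10.9% and 10.5% of all genes. The count after adjustment depended on the method, with 4 genes in DESeq2 (2.05% of all genes were higher), 4 without the filter (1.59%) and 7 when the spread was estimated from all 12 libraries (2.88%), all higher in LIP. With the library number as a block in that fit, 4 genes were higher and 2, Eif3b and Eef1aknmt, lower, where 5.15% and 3.92% of all genes were. Eif2s2, Eif4ebp1, Eif1 and Eif3c were in all 4 of these sets.

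Eif2s2 (chromosome 2, 154713330 to 154734855, minus strand) had the smallest p of the 60. It was counted at 158, 155 and 156 CPM in CTL and at 248, 344 and 322 CPM in LIP, a log2 fold change of 0.95 (SE 0.15, adjusted p = 0.0997). The 3 CTL libraries lay within a few CPM of each other and each LIP library lay well above them. The gene of its partner subunit, Eif2s1, was counted at 173, 168 and 196 CPM against 246, 183 and 189 CPM (0.19, SE 0.14, adjusted p = 0.533), and its groups overlapped. Of the eIF2B subunits, Eif2b2 had the smallest p (0.45, SE 0.17, adjusted p = 0.235), with 25.5, 31.6 and 27.9 CPM in CTL and 31.4, 42.2 and 43.4 CPM in LIP.

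Eif4ebp1 (chromosome 8, 27750350 to 27805206, plus strand) showed the largest difference, from 15, 19.1 and 14.9 CPM in CTL to 26.2, 60.01 and 61.2 CPM in LIP (1.58, SE 0.31, adjusted p = 0.118). Its protein binds eIF4E and keeps it from eIF4G. Eif1 (chromosome 11, 100210670 to 100212922, plus strand) was counted at 461, 401 and 471 CPM against 603, 922 and 757 CPM (0.77, SE 0.17, adjusted p = 0.128). Eif3c (chromosome 7, 126145192 to 126165598, minus strand) was counted at 463, 511 and 512 CPM against 627, 924 and 1008 CPM (0.78, SE 0.19, adjusted p = 0.138). In all 3 genes, LIP 90 lay between the CTL libraries and the other LIP libraries. A record on the X chromosome, Emd, shares 663 bases at 96.7% identity with a transcript of Eif1 and held 12.8% as many counts.

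The elongation factor Eef1a1 (chromosome 9, 78384916 to 78396778, minus strand) was counted at 8394, 9370 and 9280 CPM in CTL and 9729, 17562 and 14547 CPM in LIP (0.62, SE 0.23, adjusted p = 0.236). The eEF1B gene Eef1g was counted at 675, 774 and 860 CPM against 908, 1037 and 1012 CPM (0.35, SE 0.14, adjusted p = 0.269). Eef2 was counted at 5426, 6620 and 6398 CPM against 5752, 9096 and 8723 CPM (0.35, SE 0.21, adjusted p = 0.443), and here LIP 90 lay among the CTL libraries. All 5 elongation factors had a log2 fold change above 0.

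Among the 14 eIF3 genes, 11 lay above 0. Eif3g was counted at 80.6, 89.1 and 103 CPM in CTL and 109, 129 and 131 CPM in LIP (0.42, SE 0.14, adjusted p = 0.2). Eif3i, a subunit that forms a module with it and with Eif3b, was counted at 125, 139 and 160 CPM against 177, 186 and 183 CPM (0.35, SE 0.12, adjusted p = 0.218). The level of Eef2kmt on day 2 was 8.03, 9.55 and 10.3 CPM against 11.6, 17.9 and 15.4 CPM (0.67, SE 0.21, adjusted p = 0.191). The 1 gene lower at an unadjusted p under 0.05 was Eif4g3, at 224, 239 and 217 CPM against 194, 176 and 198 CPM (-0.27, SE 0.11, adjusted p = 0.281).

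**Figure D3:**
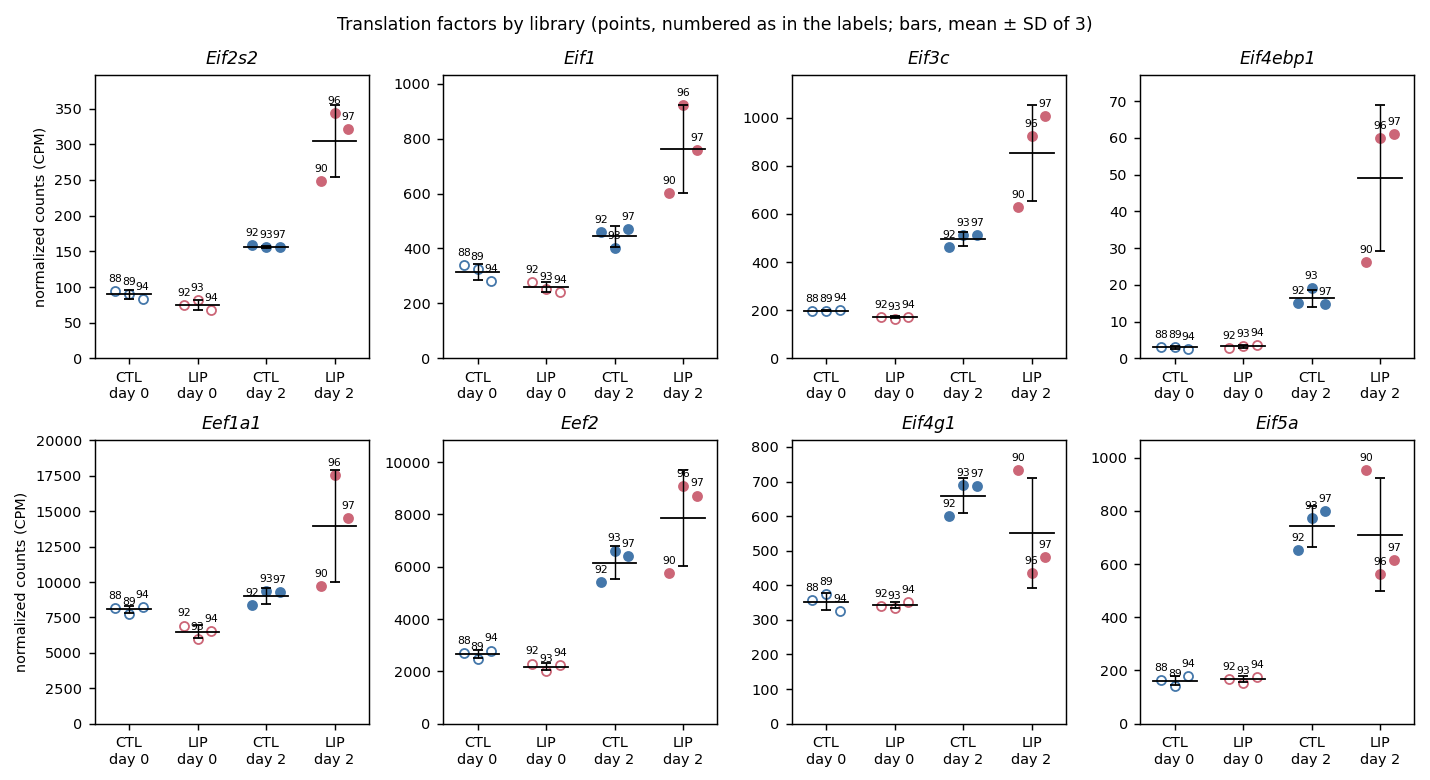
Normalized counts (CPM) of 8 genes in each of the 12 libraries, numbered as in the labels, where open points are day 0, filled points are day 2, and bars give each group's mean ± SD (n = 3). Eif2s2, Eif1, Eif3c and Eif4ebp1 lie higher in all 3 LIP libraries than in CTL on day 2, while LIP 90 lies among the CTL libraries in Eef2, and above them with LIP 96 and 97 below them in Eif4g1 and Eif5a.

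LIP 90 decided how many genes passed. Without it, 16 of the 60 genes had an adjusted p under 0.05, 11 higher and 5 lower in LIP, where 7.74% of the 14453 genes were higher and 6.19% lower. The 11 were Eif4ebp1 (1.91), Eif2s2 (1.1), Eif3c (0.98), Eif1 (0.93), Eef2kmt (0.86), Eef1a1 (0.85), Eif2b2 (0.61), Eif3k (0.56), Eef2 (0.55), Eif3g (0.53) and Eif3d (0.44), each with its log2 fold change. The 5 lower genes were Eef1aknmt (-0.71), Eif3b (-0.64), Eef1e1 (-0.50), Eif4g1 (-0.50) and Eif5b (-0.39). Other genes moved with LIP 96 and 97 as well. Tfrc, the transferrin receptor of dividing cells, was counted at 1261, 1118 and 1312 CPM in CTL and 1614, 286 and 569 CPM in LIP (-1.51 without LIP 90, adjusted p = 0.00555). Markers of CD8 T cells and NK cells summed to 5.34 to 6.57 CPM in CTL and to 5.64, 15.4 and 10.8 CPM in LIP, and those of B cells to 20.9, 22.6 and 57.6 CPM and to 21.7, 60.1 and 58.2 CPM. Among the genes of handling and temperature, Fosb, Hsph1 and Hsp90aa1 were lower and Egr1 higher without LIP 90. Their part in the 16 calls was not tested. With 2 LIP libraries left, the test assumes that they vary like the other libraries. With each of the other 5 libraries of day 2 left out in turn, 0 of the 60 genes passed after adjustment.

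The 5 lower of the 60 genes are a share near the 6.19% of all genes, and because they were found by leaving out LIP 90, its distance from LIP 96 and 97 in them is fixed by that choice. Their values are given as a description. Eif4g1, the scaffold of eIF4F, was counted at 601, 689 and 688 CPM in CTL and at 733, 437 and 483 CPM in LIP. Eif3b was counted at 297, 358 and 375 CPM against 404, 200 and 237 CPM. Eef1e1 was counted at 43.0, 47.3 and 53.1 CPM against 60.1, 30.5 and 36.3 CPM. In these 3 genes LIP 90 lay above all CTL libraries and LIP 96 and 97 below all of them. Eif5b, which encodes the GTPase that joins the ribosomal subunits, had the same order, with 166, 183 and 163 CPM against 211, 128 and 130 CPM. Eef1aknmt, which encodes a methyltransferase of eEF1A, was counted at 25.3, 28.2 and 28.7 CPM against 28.3, 16.5 and 16.7 CPM, so that LIP 90 lay among the CTL libraries. LIP 96 and 97 held more of Eif3c, Eif3g and Eif3k but less of Eif3b than every CTL library of day 2.

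**Figure D4:**
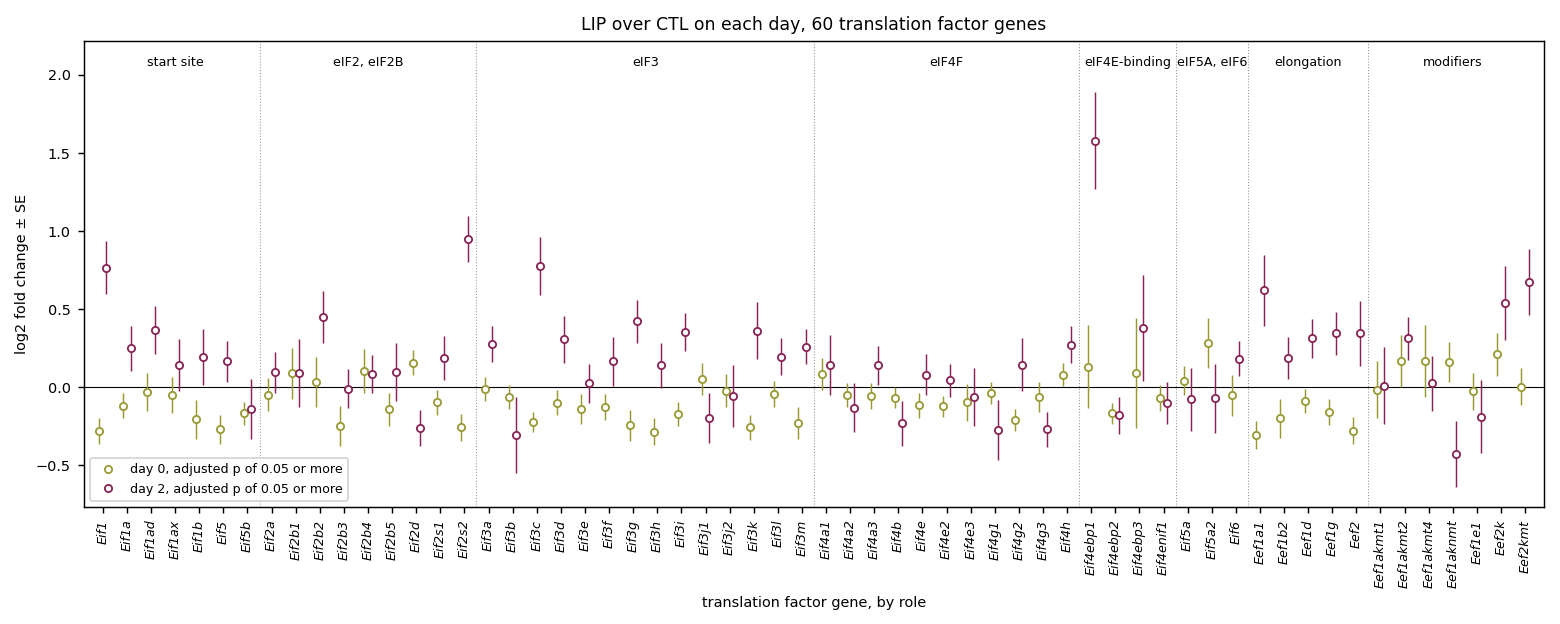
Log2 fold change (± SE) of LIP over CTL on day 0 and on day 2 for the 60 genes tested, grouped by role, from separate fits of the 6 libraries of each day. No gene passed after adjustment, the values of day 0 lie between -0.31 and 0.28, and those of day 2 reach 1.58 in Eif4ebp1 and 0.95 in Eif2s2.

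The test of the difference between the days, the interaction of group and day, asked whether the log2 fold change from day 0 to day 2 differed between LIP and CTL. At an unadjusted p under 0.05 the log2 fold change in LIP minus that in CTL was above 0 for 18 of the 60 genes (30%) and below 0 for 1 (1.67%), where 8.65% and 7.28% of all genes were. In 2 of the 18, Eef2kmt and Eif5, the gene had fallen in CTL, and the value lay nearer to 0 in LIP. The median interaction was 0.25 on the log2 scale against 0.00 over all genes, and it was 0.082 against -0.17 with library size alone and 0.073 with the library number as a block. After adjustment 1 gene passed, Eif2s2, where 0.0323% of all 15475 genes passed with a difference above 0 and 0.0194% with one below 0. Its change from day 0 to day 2 was 0.81 (SE 0.12) in CTL and 2.03 (SE 0.12) in LIP, a difference of 1.22 (SE 0.17, adjusted p = 0.0192). Eif2s2 lay below every CTL library on day 0 and above every one on day 2. This also held for Eef1a1, Eif1, Eif1a, Eif3c, Eif3g and Eif3i, and the reverse for Eif2d. The share of all genes with either pattern over both days was not counted. On day 0 alone, LIP lay wholly below CTL in 9.85% of all genes and above in 9.26%. On day 2 alone, it lay wholly above in 10.9% and below in 10.5%. The single gene with a difference below 0 at an unadjusted p under 0.05 was that same Eif2d, with a difference of -0.40 (SE 0.14, adjusted p = 0.174).

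The difference in Eif2s2 kept its size, while its adjusted p crossed the threshold. The call was lost without CTL 88, CTL 89, LIP 92, LIP 93 or LIP 94 of day 0 (adjusted p = 0.0997, 0.0514, 0.0846, 0.0737 and 0.120) and without CTL 93 or LIP 97 of day 2 (0.0761 and 0.0583), and the difference stayed between 1.13 and 1.35 with any 1 library left out. The genes with the next smallest p were Eif1 (1.06, SE 0.20, adjusted p = 0.0740), Eif3c (1.01, SE 0.20, adjusted p = 0.0740), Eef1a1 (0.94, SE 0.24, adjusted p = 0.1), Eif3g (0.68, SE 0.17), Eif3i (0.54, SE 0.14), Eef1g (0.52, SE 0.16), Eif3m (0.51, SE 0.16), Eif4ebp1 (1.46, SE 0.47) and Eif3k (0.63, SE 0.21). DESeq2 passed 8 of the 60 genes and the fit without the filter also 8, all with a difference above 0, where 2.45% and 1.82% of all genes were. Without LIP 90 it was 17, of which 13 had a difference above 0 and 4 below 0, against 5.64% and 4.45% of all genes. Without both libraries that stood apart it was also 17, 14 above 0 and 3 below 0, against 5.75% and 4.85%.

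Genes of related pathways were counted in the same fits. The list of the eIF2 kinases and the integrated stress response, the programme that follows phosphorylation of eIF2, showed the widest spread. On day 2, 8 of its 14 genes were higher and 1 lower in LIP at an unadjusted p under 0.05 (8.33% and 8.2% of all genes), and 0 passed after adjustment. Atf4, the transcription factor of this response, was counted at 154, 132 and 174 CPM in CTL and at 194, 489 and 451 CPM in LIP. Ddit3, its target CHOP, was counted at 8.45, 7.76 and 10.2 CPM against 10.3, 94.5 and 85.8 CPM. Trib3 was counted at 3.59, 2.99 and 3.97 CPM against 6.27, 142 and 102 CPM. In each of these, LIP 96 and 97 lay above every CTL library, and LIP 90 lay between, nearer to the CTL libraries.

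Chac1 (4.58, SE 0.96), Trib3 (4.56, SE 0.97) and Atf5 (2.77, SE 0.65) had the smallest p of the list on day 2, with adjusted p-values of 0.120, 0.120 and 0.133. Without LIP 90, 8 of the 14 were higher at an adjusted p under 0.05 and 0 lower (7.74% and 6.19% of all genes), and these were Atf4 (1.63), Atf5 (3.28), Ddit3 (3.37), Trib3 (5.13), Chac1 (5.15), Sesn2 (1.00), Ppp1r15a (1.14) and the kinase gene Eif2ak2 (1.52). Eif2ak2, which encodes the kinase PKR, was counted at 63.4, 25.1 and 27.7 CPM in CTL and 125, 70.1 and 150 CPM in LIP, so that here LIP 90 lay with its group. From day 0 to day 2, 6 genes of the list rose and 2 fell in CTL (35.3% and 33.7% of all genes), and 8 rose and 1 fell in LIP (36.6% and 35.2%). On day 0, Ppp1r15a, which encodes the phosphatase subunit that reverses eIF2 phosphorylation, was counted at 190, 225 and 72.6 CPM in CTL and 98.2, 65.1 and 61.6 CPM in LIP (-1.11, SE 0.31, adjusted p = 0.159), and 0 of the 14 genes passed. Without CTL 94, 2 were lower in LIP, Ppp1r15a (-1.47, SE 0.15, adjusted p = 8.31e-05) and Eif2ak3, the gene of the eIF2 kinase PERK (-0.38, SE 0.09, adjusted p = 0.0351).

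**Figure D5:**
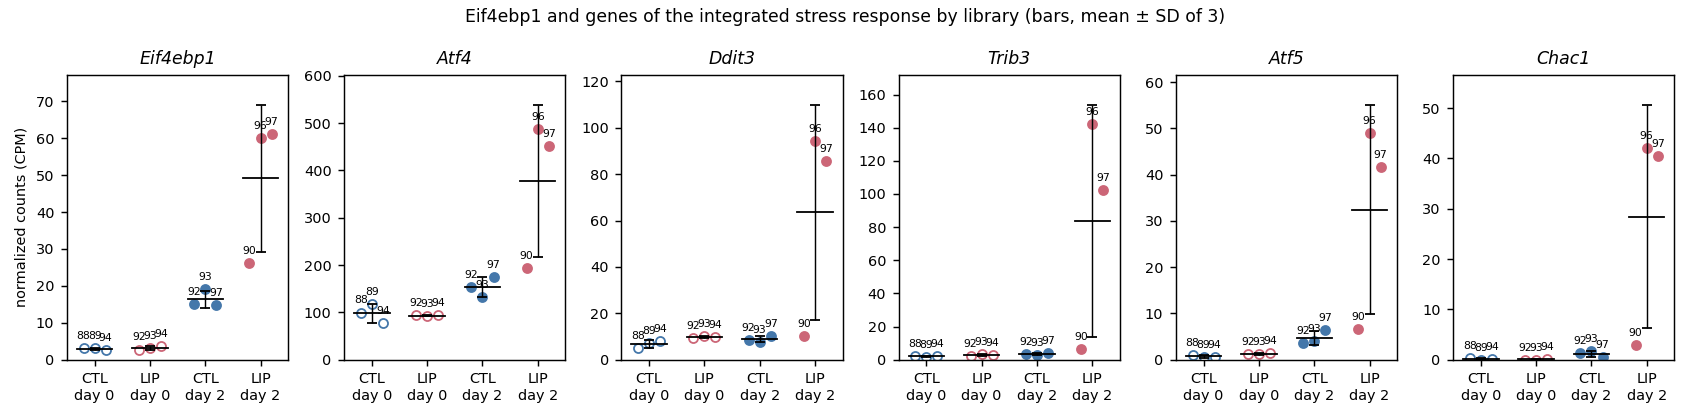
Normalized counts (CPM) of Eif4ebp1 and of 5 genes of the integrated stress response in each of the 12 libraries, numbered as in the labels, and bars for each group's mean ± SD (n = 3). On day 2, LIP 96 and 97 lie above the other 4 libraries in all 6 panels (Ddit3 at 94.5 and 85.8 CPM), and LIP 90 lies between, nearer to the CTL libraries (Ddit3 at 10.3 CPM, Trib3 at 6.27 against 2.99 to 3.97 CPM).

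The other lists differed less between LIP and CTL. On day 0, 0 genes of the lists of mTORC1 and MNK control, of poly(A)-binding proteins and helpers, of termination and ribosome rescue, of eIF5A and eEF2 modification and of mitochondrial translation factors passed after adjustment, and the same held on day 2. Without CTL 94 of day 0, Rps6kb2, a kinase of ribosomal protein S6, was higher (0.58, adjusted p = 0.0293) and Pabpc1 lower (-0.35, adjusted p = 0.0230), and 0 genes of the other 3 lists passed. Without LIP 90 of day 2, Rps6 (0.70, adjusted p = 0.00623), Mknk1 (0.78, adjusted p = 0.00666) and Gtpbp2 (2.02, adjusted p = 6.11e-06) were higher, Odc1 (-0.81, adjusted p = 0.00139) and Srm (-0.64, adjusted p = 0.0442) were lower, and 0 genes of the poly(A) and mitochondrial lists passed. Pabpc1, which encodes the poly(A)-binding protein that joins eIF4G to the mRNA's tail, had the smallest p on day 0, at 1092, 1185 and 1113 CPM in CTL and 918, 840 and 925 CPM in LIP (-0.33, SE 0.08, adjusted p = 0.0930). Gtpbp2, of the ribosome rescue list, had the largest log2 fold change of these lists on day 2 (1.60, SE 0.41, adjusted p = 0.15).

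From day 0 to day 2 the lists are given beside the 69% (CTL) and 71.8% (LIP) of all genes that passed in either direction. By direction, 35.3% of all genes rose and 33.7% fell in CTL, and 36.6% rose and 35.2% fell in LIP. Among the 13 poly(A)-binding proteins and helpers tested, 9 rose and 1 fell in CTL and 10 rose and 1 fell in LIP, with Pabpc4 at 1.78 (SE 0.11) and 1.91 (SE 0.11). Of the 11 genes of termination and rescue, 7 rose in CTL and 6 in LIP, among them the release factor genes Etf1 (1.54, SE 0.13, and 1.61, SE 0.13) and Gspt1 (1.27, SE 0.12, and 1.34, SE 0.12). Among the 14 genes of mTORC1 and MNK control, 5 rose and 3 fell in CTL and 4 rose and 4 fell in LIP, and Pdcd4, whose protein inhibits eIF4A, fell by 1.72 (SE 0.09) and 1.57 (SE 0.09). Among the genes that modify eIF5A and eEF2, Odc1, the first enzyme of polyamine synthesis, rose by 3.19 (SE 0.27) and 3.12 (SE 0.27), and Dohh, the enzyme that completes hypusine, by 0.90 (SE 0.13) and 1.13 (SE 0.13). The 10 genes of that list had 4 that rose and 2 that fell in CTL, and 4 and 3 in LIP. Of the 10 mitochondrial translation factors, 4 rose and 2 fell in CTL, and 5 rose and 1 fell in LIP, with Tufm at 1.34 (SE 0.13) and 1.45 (SE 0.13). In the lists other than that of the poly(A)-binding proteins, the share that passed in either direction lay below that of all genes. In the termination and rescue list every gene that passed rose, and the share that rose lay above that of all genes.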

How the data were processed

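RNA of splenic CD4+ T cells was sequenced as 150-bp paired-end reads after rRNA depletion. The authors trimmed the reads with Trimmomatic (version 0.38 in the processing notes, another in the paper) and ran RSEM 1.3.0 with Bowtie2 on GRCm39. The expected counts they deposited are raw estimates for each gene. The annotation release is not given in the sources used here. The authors also deposited per-day tables with a normalized signal per library (2 columns are of libraries not among the labelled samples), which were used here for gene symbols only, and their own fold changes and p-values, which were not used.

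Of the expected counts, 73267 were not whole, and all were rounded. Genes were filtered with filterByExpr and normalized with TMM in edgeR 4.0.16 (R 4.3.3). The quasi-likelihood test was run on the 6 libraries of each day for LIP against CTL and on all 12 for day 2 against day 0 and the interaction, with Benjamini-Hochberg adjustment over all genes. CPM are normalized over all 12 libraries. The scripts were tested on simulated counts. Near-identical records (at least 95% identity over 200 bases) were found with blastn 2.17.0 against GENCODE M39.

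For each LIP comparison and the interaction the 10 genes with the smallest p, and any with an adjusted p under 0.05, were given by name. For day 2 against day 0 they were the 8 at either end of the log2 fold changes among those that passed in both groups, with the 5 highest levels per kilobase and the paralogs. Other genes named were chosen after their values were seen. The members and lists were chosen with earlier results of these data known. Alternatives were RLE, upper-quartile and no scaling, no filter, at least 10 counts in every library, DESeq2 1.42.0, protein-coding genes only, other libraries in the fit and each library left out.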

Additional observations from a re-analysis of the deposited data

Results flagged for a closer look

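The effect of LIP on Eif2s2, the gene of the β subunit of eIF2, differed between the days by 1.22 on the log2 scale (SE 0.17, adjusted p = 0.0192, edgeR's quasi-likelihood test of the interaction). LIP over CTL was -0.26 (SE 0.09) on day 0 and 0.95 (SE 0.15) on day 2. The call held in 15 of 22 alternatives, with a difference between 1.05 and 1.40. The alternatives include the block on the library number, where only CTL 94 and LIP 94 of day 0 and CTL 97 and LIP 97 of day 2 informed the difference. Groups of 3 libraries were not tested for outlying libraries.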

How the results depend on the processing

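LIP and CTL of the same day share 1 replicate number, too few for a paired fit of 1 day alone. Over all 12 libraries, 4 numbers recur in a second group. The deviations of their libraries from the group means correlated by -0.0546 to 0.104 across 15475 genes, so that the libraries were not taken as pairs. The highest value, 0.104, was that of CTL 94 and LIP 94 of day 0. Each of these was the best match of the other among the libraries of other groups, which held for no other recurring number. With the number as a replicate block, chosen after seeing the data and with 1 residual degree of freedom, the median for day 2 against day 0 was 0.78 in CTL and 0.86 in LIP and that of the interaction 0.073, and 41, 40 and 3 genes passed after adjustment. For LIP against CTL the block gave 0 genes after adjustment, 3 at an unadjusted p under 0.05 and a median of -0.13 on day 0, and 6 genes after adjustment (4 higher and 2 lower) and a median of 0.014 on day 2. Among the genes named by p or by log2 fold change, 0 of 160 alternative values on day 0, 0 of 160 on day 2 and 0 of 220 of the interaction changed sign. For day 2 against day 0 the 3 values that did were Eif4e2 in CTL with upper-quartile scaling (-0.054) and Eif4g3 in LIP with upper-quartile scaling (-0.061) and library size alone (-0.10). Calls were lost in 25 of 368 values in CTL (Eef1akmt2, Eif1b, Eif4e2 and Eif4g3), in 33 of 368 in LIP (Eef2kmt, Eif4g3, Eef1akmt2 and Eif4e2) and in 7 of 220 of the interaction (Eif2s2), and gained in 9 on day 0, 27 on day 2 and 31 of the interaction. Leaving out 1 library at a time, the counts with an adjusted p under 0.05 ranged from 0 to 2 (LIP against CTL on day 0), 0 to 16 (day 2) and 0 to 17 (interaction), those with an unadjusted p under 0.05 from 9 to 18 on day 0 and 5 to 31 on day 2, and the median log2 fold changes from -0.13 to -0.055 (day 0), 0.094 to 0.25 (day 2), 0.85 to 0.97 (day 2 against day 0 in CTL), 1.06 to 1.22 (in LIP) and 0.18 to 0.30 (interaction). For LIP against CTL on day 0, library size alone gave a median of 0.0038 and 9 genes with an unadjusted p under 0.05 and all 12 libraries in the fit gave 3, while no filter gave 5 and DESeq2 2 after adjustment. For day 2, no filter and DESeq2 gave 4 each and all 12 libraries in the fit 7, and library size alone gave a median of 0.059. For day 2 against day 0, the median was 0.61 with upper-quartile scaling, 0.71 with library size alone and 0.73 with protein-coding genes only in CTL, and in LIP 0.81, 0.77 and 0.94, as well as 1.04 with at least 10 counts in every library and 1.06 without CTL 94 and LIP 90. The median interaction was 0.082 with library size alone, and after adjustment no filter and DESeq2 gave 8 genes each and leaving out both libraries 17. Leaving out 2 libraries and adding pseudogene counts to the genes were chosen after seeing the data. The cause of these shifts was not tested. With 3 libraries a group, an exact permutation test of a single gene cannot give a p below 0.1.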
